A study of Homo sapiens with 6 samples.

Results

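This report covers 10 genes that control passage through the G1 phase of the cell cycle: the D-type cyclin genes CCND1 and CCND3, the E-type cyclin genes CCNE1 and CCNE2, the retinoblastoma gene RB1, and the genes of 5 inhibitors of cyclin-dependent kinases, CDKN1A, CDKN1B, CDKN1C, CDKN2A and CDKN2B. They were chosen by gene symbol, and all 10 were among the 63241 genes of the expression table. The libraries came from MDA-MB-231, an established human line of breast cancer cells, of the triple-negative subtype and mesenchymal in character. In 3 libraries the cells had received 40 µM of ArA, which by the study's title is arachidonic acid, a lipid with several double bonds that is released from membrane phospholipids, and were cultured for 24 h. The other 3 libraries came from non-treated control cells. Cells of both groups were kept in DMEM with 10% fetal bovine serum and antibiotics, no vehicle is named for the controls, and a single cell line was used. The labels do not say whether replicates were separate cultures, so the p-values rest on a spread between libraries that may be technical.

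D-type cyclins bind the kinases CDK4 and CDK6, and E-type cyclins bind CDK2. These kinases phosphorylate the retinoblastoma protein, which then releases E2F transcription factors that switch on genes of DNA replication. Inhibitors of the INK4 family (products of CDKN2A and CDKN2B) bind CDK4 and CDK6, whereas those of the Cip/Kip family (products of CDKN1A, CDKN1B and CDKN1C) bind cyclin-CDK complexes more broadly. In breast cancer, cyclin D1 and CDK4 are best known as oncogenic drivers of estrogen receptor-positive tumours, and CDK inhibitor drugs act through this pathway.

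No G1 control gene differed detectably between ArA and control cells. Levels are in TPM, the share of a gene's transcripts among all transcripts of a library after correction for length, and limma was run on log2(TPM + 1) for genes whose mean reached 1 TPM. Of the 10 genes, 8 were tested, and CDKN2A and CDKN2B, listed at 0 TPM in every library, were not. None of the 8 passed an adjusted p of 0.05 in limma, a rule that called 3 of 12999 tested genes (0.0231%). At an unadjusted p under 0.05 there were 0 of the 8, against 362 of all tested genes. For 0 of the 8 did the 3 ArA values lie apart from the 3 control values, as they did for 8.05% of all tested genes. Of the 8 log2 fold changes, 6 were positive and 2 negative, with a median of 0.02 beside 0.06 over all tested genes. Under each of the 3 other scalings (median of ratios, quantile normalization, TPM without mitochondrially encoded genes) 3 were positive and 5 negative, with medians of -0.04 to -0.03 beside -0.0031 to 0.0088 over all tested genes. Without ArA replicate 1 all 8 were positive, with a median of 0.12, the same as over all tested genes, and without control replicate 2 there were 3 positive, with a median of -0.08 beside 0.01. Each adjusted p was 0.999, and the unadjusted p ranged from 0.115 for CCNE1 to 0.982 for CDKN1C. In bulk RNA such as this, fewer cells in a phase of the cycle and less RNA per cell cannot be told apart.

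Upstream DNA is shown for 3 of these genes because the contrast in their levels runs through the results: CCNE1 had the largest difference of the 8, CDKN1A was the most abundant of the 5 inhibitor genes, and CDKN2A, with a start for each of its products, p16INK4a and ARF, was listed at 0 throughout. Each sequence holds the 250 bases before a RefSeq transcript start (GRCh38.p14), written 5′ to 3′ on the gene's strand, and capitals mark each GC box, GGGCGG on either strand, the motif bound by SP1.
CCNE1, forward strand, chr19:29811741-29811990: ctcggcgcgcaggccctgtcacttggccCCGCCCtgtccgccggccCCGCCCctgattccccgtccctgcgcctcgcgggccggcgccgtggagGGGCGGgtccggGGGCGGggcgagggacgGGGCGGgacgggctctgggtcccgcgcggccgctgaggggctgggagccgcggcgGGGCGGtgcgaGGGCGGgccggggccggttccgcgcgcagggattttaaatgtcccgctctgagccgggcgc
CDKN1A, forward strand, chr6:36678464-36678713: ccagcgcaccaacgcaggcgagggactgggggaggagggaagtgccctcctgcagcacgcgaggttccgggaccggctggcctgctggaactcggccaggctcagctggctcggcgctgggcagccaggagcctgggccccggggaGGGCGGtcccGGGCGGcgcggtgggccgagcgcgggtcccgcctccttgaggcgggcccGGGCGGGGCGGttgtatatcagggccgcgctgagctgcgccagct
CDKN2A, p16INK4a start, reverse strand, chr9:21974858-21975107: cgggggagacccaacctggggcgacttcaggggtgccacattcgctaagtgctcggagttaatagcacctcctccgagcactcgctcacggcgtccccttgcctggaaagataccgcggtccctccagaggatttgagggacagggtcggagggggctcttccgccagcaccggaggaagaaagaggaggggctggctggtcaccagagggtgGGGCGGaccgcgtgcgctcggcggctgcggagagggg
CDKN2A, ARF start, reverse strand, chr9:21995325-21995574: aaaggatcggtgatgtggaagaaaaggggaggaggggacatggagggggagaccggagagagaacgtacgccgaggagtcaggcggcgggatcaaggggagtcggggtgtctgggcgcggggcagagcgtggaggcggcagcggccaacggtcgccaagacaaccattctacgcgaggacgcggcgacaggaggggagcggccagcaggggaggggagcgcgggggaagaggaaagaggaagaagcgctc

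The GC box occurred 7 times before CCNE1 and 4 times before CDKN1A, where 2 of the copies share a base, against 1 time before the p16INK4a start and 0 times before the ARF start. Among the genes not shown, it occurred 2 times before CDKN2B, which was listed at 0 TPM, and 1 time before CDKN1B. The starts of CCND3 had 0, 2 and 5 copies, and an internal start of RB1 had 0. Copies therefore did not follow the levels across genes, and a relation was not tested. At least 1 copy was found in 42.6% of all 35116 RefSeq windows of this length. The windows are rich in G and C, at 81.2% for CCNE1, 76.4% for CDKN1A and 66.8% for each start of CDKN2A. The E2F motif was searched in a short form on either strand, as TTTGGCG or with CG or CC in place of its GG, and was found in 0 of these 4 windows and in 6.1% of all windows. Matches describe the letters and do not show that a factor binds.

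**Figure D1:**
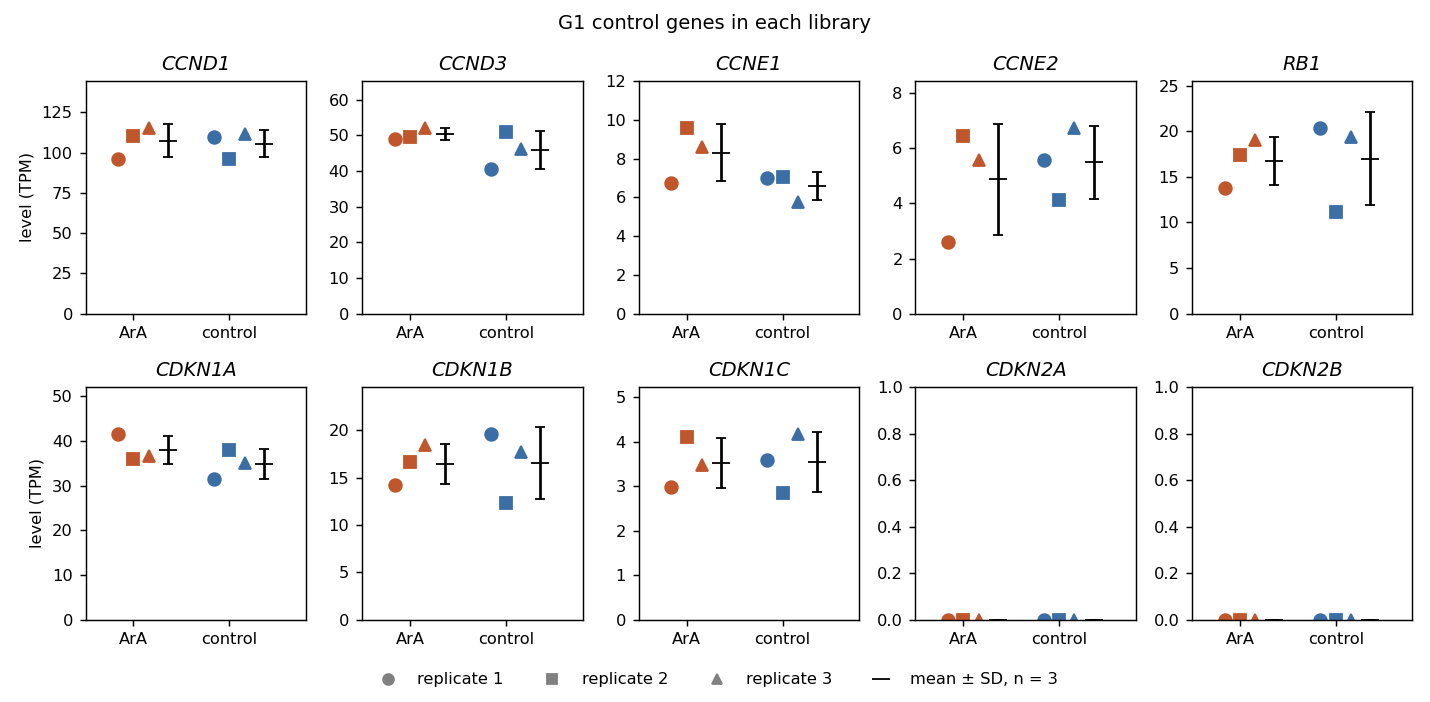
TPM of each G1 control gene in the 3 ArA libraries (left) and the 3 control libraries (right); symbols are replicates and bars are mean ± SD (n = 3). In every panel the ArA and control values overlap, and CDKN2A and CDKN2B lie at 0.

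Among the D-type cyclins, CCND1 (ENSG00000110092), whose product is cyclin D1, was the most abundant of the 10 genes. It had 96.06, 110.48 and 115.56 TPM in ArA replicates 1, 2 and 3, against 109.83, 95.79 and 111.31 TPM in control replicates 1, 2 and 3. The groups overlapped almost fully, and the lowest values were ArA replicate 1 and control replicate 2. CCND1 averaged 107 ± 10.1 TPM in ArA and 106 ± 8.57 TPM in control libraries (SD, n = 3 each). With a 95% interval of -0.23 to 0.27, the log2 fold change of CCND1 was 0.02 (SE 0.11, limma adjusted p = 0.999), and folds from 0.855 to 1.21 lie within it. The level stood above 91.5% of tested genes. LTO1, a gene on the opposite strand whose span overlaps that of CCND1, averaged 11.7 TPM in ArA and 12.0 TPM in control libraries, and whether counting used strand is not given in the sources used here.

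CCND3, which codes for cyclin D3, another partner of CDK4 and CDK6, had 49.05, 49.61 and 52.14 TPM in ArA libraries, against 40.49, 50.91 and 46.15 TPM in control libraries. Only control replicate 2 reached into the ArA range. The means were 50.3 ± 1.65 TPM in ArA and 45.9 ± 5.22 TPM in control libraries (SD, n = 3 each), and the log2 fold change came to 0.14 (SE 0.11, 95% interval -0.11 to 0.38). Together the 2 cyclin D transcripts summed to 158 ± 11.5 TPM in ArA and 151 ± 5.48 TPM in control libraries, and CCND1 made up 68.0% ± 1.60 of that sum in ArA and 69.7% ± 3.98 in control libraries (SD, n = 3 each). CCND2, the third D-type cyclin gene, was at most 0.01 TPM in ArA and 0.03 TPM in control libraries and was not tested.

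The E-type cyclins were about an order of magnitude lower. CCNE1, coding for cyclin E1, had 6.73, 9.60 and 8.60 TPM in ArA libraries, against 6.99, 7.05 and 5.74 TPM in control libraries. ArA replicates 2 and 3 lay above all controls, and ArA replicate 1 lay among them. CCNE1 averaged 8.31 ± 1.46 TPM in ArA and 6.59 ± 0.740 TPM in control libraries (SD, n = 3 each), so the mean was 1.26 times as high in ArA libraries. Its log2 fold change of 0.29 was the largest of the 8 genes (SE 0.16, 95% interval -0.09 to 0.66), and folds from 0.940 to 1.58 lie within that interval. CCNE2, coding for cyclin E2, had 2.61, 6.43 and 5.59 TPM in ArA libraries, against 5.56, 4.14 and 6.75 TPM in control libraries. The single value of ArA replicate 1 was the lowest of the 6, and the other 5 interleaved. The log2 fold change of CCNE2 was -0.19 (SE 0.30, 95% interval -0.89 to 0.51), the widest interval of the 8, and it was 0.13 without ArA replicate 1. CCNE2 overlaps INTS8 and NDUFAF6 on the opposite strand, which averaged 10.3 and 12.3 TPM in ArA and 11.6 and 11.8 TPM in control libraries, more than CCNE2 itself.

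**Figure D2:**
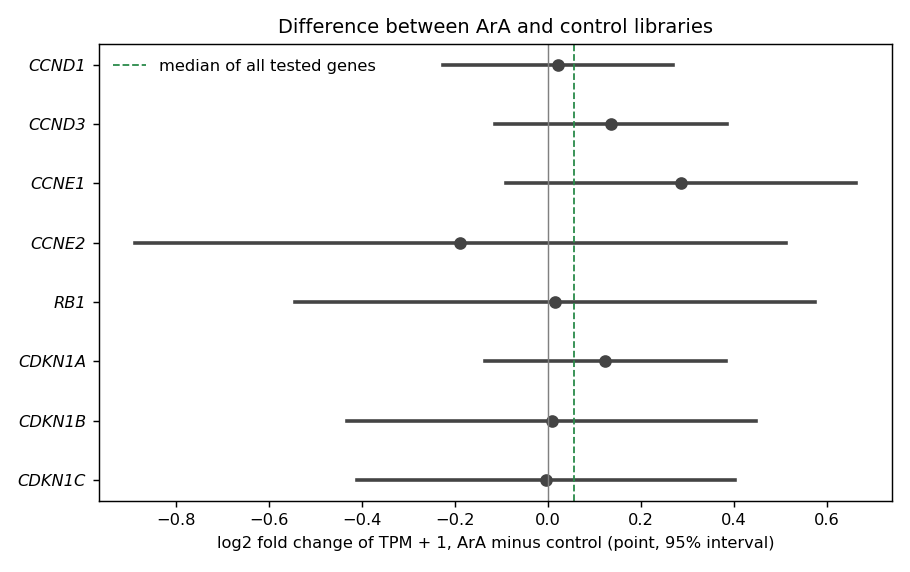
Log2 fold change of TPM + 1, ArA minus control, with its 95% interval from limma, for the 8 G1 control genes tested (3 libraries in each group). All 8 intervals include 0, and those of CCNE2 and RB1 are the widest.

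RB1 (chromosome 13, 48303726 to 48599436, forward strand), the gene of the retinoblastoma protein that restrains E2F, was expressed in all 6 libraries. It had 13.83, 17.45 and 19.00 TPM in ArA libraries, against 20.41, 11.14 and 19.40 TPM in control libraries. Control replicate 2 was the lowest of the 6, the other 2 controls were the highest, and the ArA values lay in between. The means were 16.8 ± 2.65 TPM in ArA and 17.0 ± 5.09 TPM in control libraries (SD, n = 3 each), with a log2 fold change of 0.02 (SE 0.24, 95% interval -0.54 to 0.57). All 3 other scalings and the correction for GC content turned this sign negative.

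CDKN1A (chromosome 6, 36676460 to 36687339, forward strand) codes for p21, the Cip/Kip inhibitor best known as a target of p53. It had 41.66, 35.97 and 36.56 TPM in ArA libraries, against 31.49, 38.06 and 35.12 TPM in control libraries. The highest value was in ArA replicate 1, and control replicate 2 lay above the other 2 ArA values. CDKN1A averaged 38.1 ± 3.13 TPM in ArA and 34.9 ± 3.29 TPM in control libraries (SD, n = 3 each), and the log2 fold change came to 0.12 (SE 0.11, 95% interval -0.14 to 0.38), so the fold lies between 0.910 and 1.30. CDKN1B, coding for p27, an inhibitor of cyclin E-CDK2, had 14.22, 16.62 and 18.41 TPM in ArA libraries, against 19.63, 12.29 and 17.68 TPM in control libraries. The control values spanned the whole ArA range, and the log2 fold change came to 0.01 (SE 0.19, 95% interval -0.43 to 0.45). CDKN1C, an imprinted gene that codes for p57, had 2.99, 4.10 and 3.47 TPM in ArA libraries, against 3.60, 2.85 and 4.18 TPM in control libraries. It was the lowest of the 8 genes tested, with a log2 fold change of -0.00 (SE 0.17, 95% interval -0.41 to 0.40).

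The 3 Cip/Kip transcripts together summed to 58.9, 56.7 and 58.4 TPM in ArA libraries, against 54.7, 53.2 and 57.0 TPM in control libraries. The highest control lay just above the lowest ArA value, and the coefficient of variation of the sum was 1.99% in ArA and 3.46% in control libraries, against 8.22% to 15.8% in ArA and 9.43% to 23.0% in control libraries for the 3 genes. CDKN1A made up 65.6% ± 4.50 of it in ArA and 63.6% ± 7.20 in control libraries (SD, n = 3 each). The ratio of CDKN1A to CDKN1B was 2.93, 2.16 and 1.99 in ArA libraries and 1.60, 3.10 and 1.99 in control libraries. ArA replicate 1 and control replicate 2 had the highest ratios, 1 library of each group.

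In order of mean level over the 6 libraries, CCND1 was followed by CCND3, CDKN1A, RB1, CDKN1B, CCNE1, CCNE2 and CDKN1C. The ranges over libraries did not meet between CCND1 and CCND3, between CDKN1A and RB1, or between CDKN1B and CCNE1. The ranges of CCND3 and CDKN1A met, but CCND3 was the higher in 6 of 6 libraries. RB1 and CDKN1B, at 16.9 and 16.5 TPM on average, overlapped, with RB1 above CDKN1B in 4 of 6 libraries. CCNE1 lay above CCNE2, and CCNE2 above CDKN1C, in 5 of 6 libraries, with overlapping ranges.

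The INK4 genes CDKN2A and CDKN2B had no listed transcripts. CDKN2A (ENSG00000147889, chromosome 9, 21967753 to 21995301, reverse strand) codes for p16INK4a and, in another reading frame, for ARF, which protects p53 from MDM2. CDKN2B (chromosome 9, 22002903 to 22009363, reverse strand) codes for p15INK4b. Both were listed at 0 TPM in all 3 ArA and all 3 control libraries. Loss of this region of chromosome 9 is known in MDA-MB-231 cells as background, and DNA copy number was not measured here. An exact 0 in a table of this kind can be a failed estimate.

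The neighbours of CDKN2A were at or near 0 as well. Among 24 other protein-coding genes within 2 Mb of CDKN2A in GENCODE, CDKN2B left out, 21 were listed at 0 in all 6 libraries, 16 of them type I interferon genes, which most cells keep silent. Of all 63241 listed genes, of every type, 28138 were above 0 in any library. The share among protein-coding genes alone was not taken. MTAP, a neighbour of CDKN2A and a methionine salvage enzyme that nearly all cells express, was at 0 in 5 libraries and at 0.02 TPM in control replicate 3. KLHL9, an adaptor of a ubiquitin ligase whose gene lies within the interferon cluster, and HACD4, an enzyme of very-long-chain fatty acid synthesis beyond it, were at 0 in all 6. CDKN2B-AS1, the antisense RNA at CDKN2B, reached at most 0.04 TPM in ArA and 0.02 TPM in control libraries. MIR31HG, a non-coding RNA, was at 0 in ArA libraries and at most 0.03 TPM in control libraries, and CDKN2A-DT, IFNB1, IFNE, DMRTA1 and ELAVL2 were at 0 throughout. Transcripts were listed again at FOCAD, at 0.46, 0.30 and 1.26 TPM in ArA and 1.27, 0.13 and 1.05 TPM in control libraries, and at MLLT3, at 1.70, 2.38 and 2.80 TPM in ArA and 3.69, 2.19 and 2.50 TPM in control libraries. Only MLLT3 of these 12 listed neighbours was tested, with a log2 fold change of -0.20 (SE 0.21, limma adjusted p = 0.999).

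**Figure D3:**
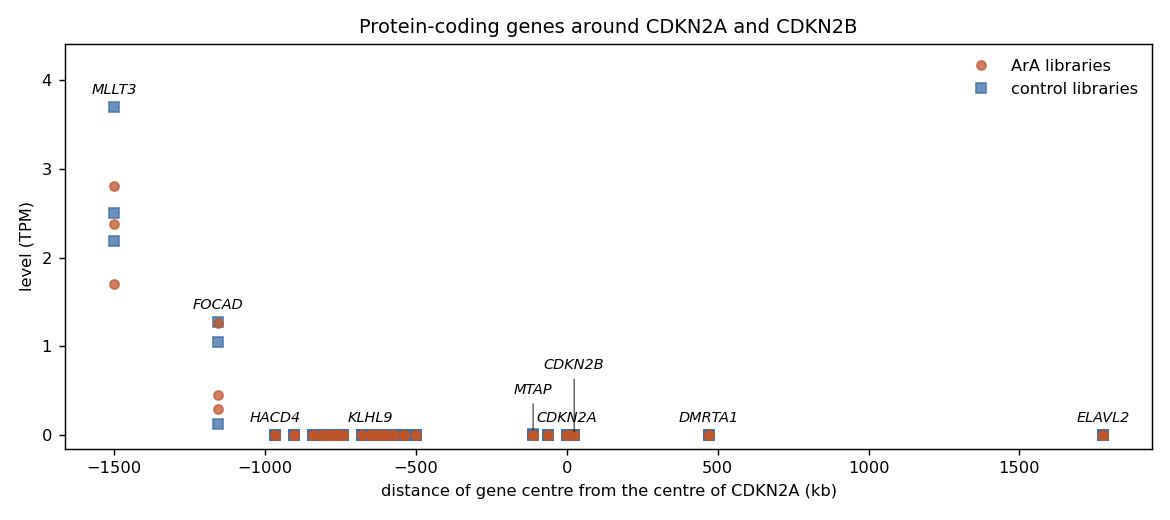
TPM of the 26 protein-coding genes within 2 Mb of CDKN2A, itself and CDKN2B included, in each ArA library (circles) and control library (squares), by distance of the gene's centre from that of CDKN2A in kb. All genes from HACD4 to ELAVL2 lie at or near 0. At the left edge MLLT3 lies above 0 in every library, and FOCAD ranges from 0.13 to 1.27 TPM.

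The other INK4 genes were expressed. CDKN2C, coding for p18INK4c, had 37.42, 38.41 and 42.55 TPM in ArA libraries, against 36.45, 41.27 and 41.95 TPM in control libraries. CDKN2D, coding for p19INK4d, had 23.46, 24.52 and 27.28 TPM in ArA libraries, against 23.98, 24.09 and 24.33 TPM in control libraries. Neither group of values stood apart from the other, and the log2 fold changes were -0.01 (SE 0.10) and 0.05 (SE 0.10). With CDKN3, CDK2AP2 and CDKN2AIP, which are outside the INK4 family, all 5 genes of this list were tested and 0 passed in either direction. Their median log2 fold change was -0.01, or 0.10 without ArA replicate 1, beside 0.06 and 0.12 over all tested genes. CDKN3, a phosphatase that acts on CDK2, had 57.67, 81.00 and 92.65 TPM in ArA libraries and 88.10, 63.01 and 94.20 TPM in control libraries, lowest again in ArA replicate 1 and control replicate 2. CDK2AP2 averaged 57.3 ± 1.58 TPM in ArA and 58.2 ± 2.05 TPM in control libraries, and CDKN2AIP, a binding partner of ARF, 5.97 ± 1.99 TPM in ArA and 5.52 ± 1.53 TPM in control libraries (SD, n = 3 each).

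Those 2 libraries differed from the other 4 along the GC content of transcripts. For the 2528 tested genes with the lowest GC content (at most 40.9%), the median deviation of a library from the 6-library mean of log2(TPM + 1) was -0.30 in ArA replicate 1 and -0.43 in control replicate 2, and 0.12 to 0.21 in the other 4. For the 2528 genes with the highest GC content (at least 57.9%) it lay between -0.12 and 0.05 in all 6 libraries. RB1 and CCNE2 have the transcripts poorest in GC of the 8 genes, at 37.3% and 36.9%, and CDKN1C (63.8%), CDKN1A (58.1%) and CCND3 (56.2%) the richest. RB1 deviated by -0.24 in ArA replicate 1 and -0.53 in control replicate 2, whereas CDKN1A deviated by 0.19 and 0.07 in the same libraries. CDKN1C went with the low group despite its GC content, at -0.18 and -0.23.

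Once each library's trend with GC content was removed, the within-group SD of RB1 on the log2 scale was 0.08, against 0.36 before. For CCNE2 it was 0.24 against 0.45, and for CDKN1B 0.20 against 0.27, while for CDKN1C it was 0.21 against 0.20. The median over all tested genes was 0.14 against 0.18. On this scale RB1 had a log2 fold change of -0.00 (SE 0.08), CCNE1 of 0.22 (SE 0.13), CCND3 of 0.07 (SE 0.08), CDKN1A of 0.06 (SE 0.08) and CCNE2 of -0.20 (SE 0.17), and 0 of the 8 genes passed, with adjusted p of 1.00 in limma. Without control replicate 2 and ArA replicate 1, a choice made after seeing the data, the groups of CCNE1, CCND3, CDKN1A and RB1 no longer overlapped, 4 of 8 genes beside 44.4% of all tested genes with 2 libraries in each group. The log2 fold changes were then 0.46 for CCNE1, 0.23 for CCND3, 0.12 for CDKN1A and -0.12 for RB1, and 0 of 8 passed in limma (adjusted p from 0.507 for CCNE1 upwards), where 0.0923% of all tested genes passed.

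**Figure D4:**
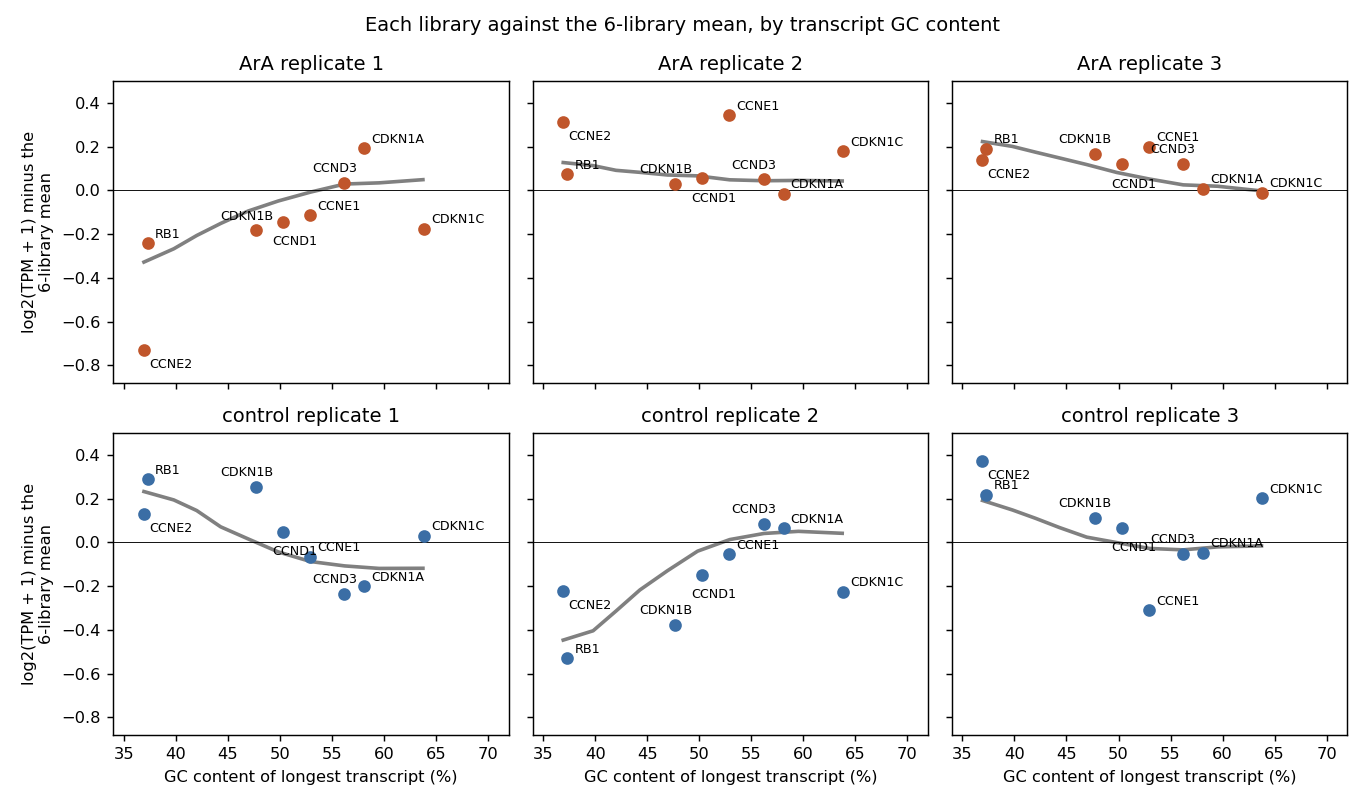
Deviation of each of the 8 G1 control genes from its 6-library mean on the log2(TPM + 1) scale, against the GC content of its longest transcript, for the 3 ArA libraries (top) and 3 control libraries (bottom); grey lines are medians of all tested genes in 10 equal bins of GC content. In ArA replicate 1 and control replicate 2 the grey line and RB1 and CCNE2 drop at low GC content.

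The kinases and partners of the cyclins did not pass either. Of 10 genes in this list, 9 were tested, 0 rose and 0 fell by the test, 3 log2 fold changes were positive and 6 negative, and the median was -0.01. Without ArA replicate 1 there were 7 positive and 2 negative, with a median of 0.07 beside 0.12 over all tested genes. CDK4, the main cyclin D kinase, averaged 137 ± 6.29 TPM in ArA and 141 ± 17.5 TPM in control libraries, and CDK2AP1, a CDK2-associated protein gene, 77.3 ± 11.5 TPM in ArA and 70.0 ± 10.3 TPM in control libraries (SD, n = 3 each). CDK7, the kinase that activates other CDKs, averaged 25.3 ± 5.03 TPM in ArA and 28.2 ± 5.46 TPM in control libraries. CDK2 and CDK6, named for their role after values were seen, averaged 47.9 ± 6.57 and 3.34 ± 0.934 TPM in ArA and 50.8 ± 4.65 and 3.39 ± 1.05 TPM in control libraries, so CDK6 was far below CDK4 in both groups.

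Downstream, all 18 listed pocket protein, E2F and DREAM complex genes were tested and 0 passed, with 11 log2 fold changes positive, 7 negative and a median of 0.01. Under the 3 other scalings 4 or 5 were positive, with medians of -0.05 to -0.04. Without ArA replicate 1 there were 17 positive and 1 negative, with a median of 0.08 beside 0.12 over all tested genes. MYBL2, a transcription factor gene switched on by E2F, averaged 66.7 ± 1.67 TPM in ArA and 66.6 ± 9.37 TPM in control libraries, and RBBP4, a chromatin protein of the DREAM complex, 57.7 ± 8.33 TPM in ArA and 55.3 ± 4.57 TPM in control libraries (SD, n = 3 each). TFDP2, a dimer partner of E2F proteins, had 21.20, 16.07 and 18.07 TPM in ArA libraries, against 15.64, 12.70 and 15.62 TPM in control libraries. It was the only 1 of the 18 without overlap, beside 8.05% of all tested genes. The log2 fold change of TFDP2 was 0.31 (SE 0.14, unadjusted p = 0.0633, limma adjusted p = 0.999). Its relative TFDP1 averaged 48.0 ± 6.99 TPM in ArA and 51.9 ± 6.11 TPM in control libraries.

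Of 20 E2F target genes of G1/S, 0 passed, 6 log2 fold changes were positive and 14 negative, and the median was -0.04 beside 0.06 over all tested genes. Under the 3 other scalings the median was -0.11 to -0.09, beside -0.0031 to 0.0088 over all tested genes, and 1 was positive. Without ArA replicate 1 the median was 0.04 beside 0.12 over all tested genes, and 13 were positive. The replicative helicase gene MCM4 had 91.32, 85.55 and 89.16 TPM in ArA libraries, against 99.72, 96.15 and 104.76 TPM in control libraries. All ArA values of MCM4 were the lower ones, with a log2 fold change of -0.17 (SE 0.08, limma adjusted p = 0.999). Groups were apart for 2 of the 20, beside 8.05% of all tested genes. MCM7, of the same helicase, averaged 203 ± 3.82 TPM in ArA and 221 ± 19.9 TPM in control libraries, thymidine kinase gene TK1 182 ± 10.1 TPM in ArA and 203 ± 33.6 TPM in control libraries, and ORC1, of the origin recognition complex, 13.4 ± 0.182 TPM in ArA and 12.8 ± 0.730 TPM in control libraries (SD, n = 3 each). Of 6 proliferation markers 0 passed, and all 6 log2 fold changes were negative under each of the 4 scalings. Their median was -0.10 in the main analysis, beside 0.06 over all tested genes. Without ArA replicate 1 there were 3 positive, with a median of -0.02 beside 0.12 over all tested genes. The mitotic cyclin gene CCNB1 had 176.95, 175.54 and 181.03 TPM in ArA libraries, against 185.81, 186.64 and 198.59 TPM in control libraries, and the cycle-dependent kinase CDK1 had 32.76, 56.41 and 57.50 TPM in ArA libraries and 68.17, 31.46 and 65.12 TPM in control libraries. The kinase genes AURKA and PLK1 averaged 112 ± 8.54 and 110 ± 8.26 TPM in ArA and 115 ± 3.45 and 118 ± 13.7 TPM in control libraries.

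**Figure D5:**
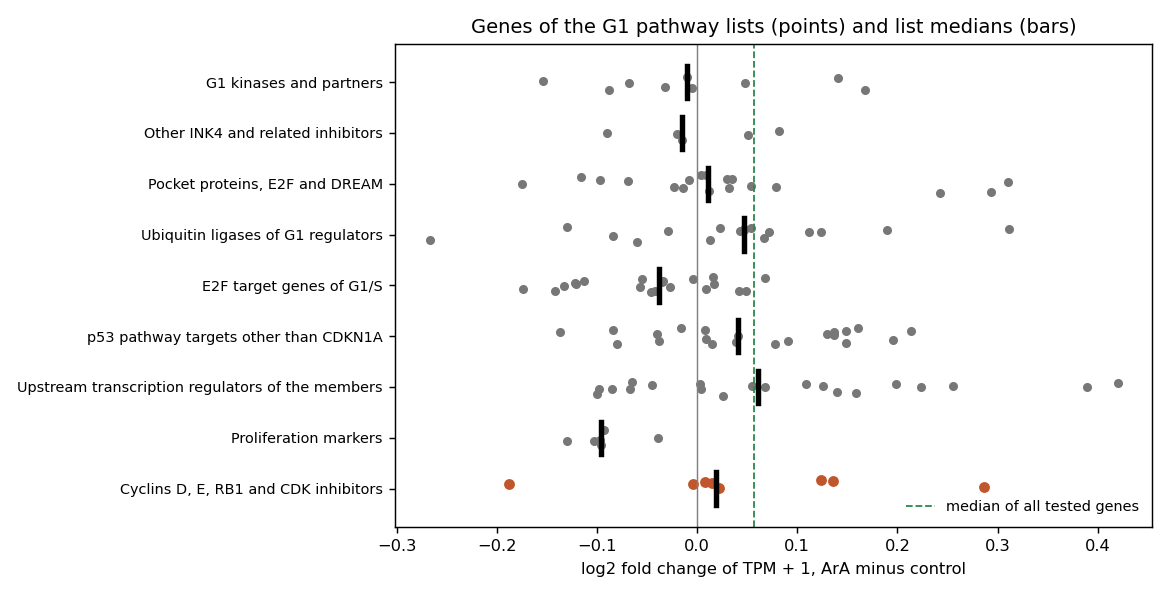
Log2 fold change of TPM + 1, ArA minus control, of each tested gene (points) in 8 lists of the G1 pathway and in the cyclins, RB1 and CDK inhibitors (bottom), with list medians as black bars and the median of all tested genes, 0.06, as a dashed line. All medians lie between -0.10 and 0.06.

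Ubiquitin ligases set the protein levels of cyclins and Cip/Kip inhibitors. Of 17 listed genes of ligases and associated proteins 0 passed, 12 log2 fold changes were positive and 5 negative, and the median was 0.05. Under the 3 other scalings 5 to 8 were positive and 9 to 12 negative, with medians of -0.02 to -0.01. SKP1, an adaptor of SCF ligases, averaged 297 ± 16.4 TPM in ArA and 284 ± 33.1 TPM in control libraries, and CKS1B, which helps mark p27 for degradation, 217 ± 22.6 TPM in ArA and 215 ± 20.6 TPM in control libraries (SD, n = 3 each). FBXO31, which targets cyclin D1, had 10.33, 9.71 and 10.57 TPM in ArA libraries, against 7.34, 8.96 and 7.84 TPM in control libraries. It was the only 1 of the 17 whose groups did not overlap, beside 8.05% of all tested genes. The log2 fold change of FBXO31 was 0.31 (SE 0.12, unadjusted p = 0.0345, limma adjusted p = 0.999). FBXO4, described as another F-box protein of cyclin D1, averaged 2.23 ± 0.318 TPM in ArA and 2.90 ± 0.483 TPM in control libraries.

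Of 22 genes of the p53 pathway other than CDKN1A, 21 were tested and 0 passed, with 15 log2 fold changes positive, 6 negative and a median of 0.04. Under each of the 3 other scalings 10 were positive and 11 negative, so the sign of the median, -0.02 to -0.01 there, depended on the scaling. Without ArA replicate 1 the median was 0.13, beside 0.12 over all tested genes. The death receptor gene TNFRSF10B had 101.08, 99.58 and 101.92 TPM in ArA libraries, against 94.25, 97.73 and 83.65 TPM in control libraries. It was the only 1 of the 21 without overlap, beside 8.05% of all tested genes. The log2 fold change of TNFRSF10B was 0.14 (SE 0.09, limma adjusted p = 0.999). The apoptosis effector BAX averaged 85.5 ± 9.17 TPM in ArA and 74.8 ± 11.4 TPM in control libraries, and the DNA repair gene DDB2 15.4 ± 2.22 TPM in ArA and 16.9 ± 0.516 TPM in control libraries (SD, n = 3 each).

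Among 20 genes of transcription regulators known to act on the cyclin and inhibitor genes, 0 passed, 14 log2 fold changes were positive and 6 negative, and the median was 0.06, the same as over all genes. Under the 3 other scalings 10 or 11 were positive and the median was 0.00 to 0.01. JUN, a subunit of AP-1 that can activate CCND1, had the smallest p of the list, with 51.47, 50.25 and 49.87 TPM in ArA libraries, against 37.63, 39.62 and 35.37 TPM in control libraries. Its log2 fold change was 0.42 (SE 0.09, unadjusted p = 0.00163, limma adjusted p = 0.999). MYC, named after its values were seen as the other gene of this list with an unadjusted p under 0.05, had 47.40, 50.39 and 51.44 TPM in ArA libraries, against 41.74, 43.75 and 44.14 TPM in control libraries. The log2 fold change of MYC was 0.20 (SE 0.08, unadjusted p = 0.0478, limma adjusted p = 0.999). At an unadjusted p under 0.05 there were 2 of the 20, beside 2.78% of all tested genes. Groups were apart for 3 of the 20, beside 8.05% of all tested genes. CTNNB1, the gene of beta-catenin, averaged 234 ± 26.2 TPM in ArA and 214 ± 11.5 TPM in control libraries, FOSL1, another AP-1 subunit, 131 ± 3.69 TPM in ArA and 131 ± 11.7 TPM in control libraries, and SMAD3, a mediator of TGF-beta signals, 34.5 ± 2.41 TPM in ArA and 37.0 ± 2.07 TPM in control libraries (SD, n = 3 each).

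The libraries carried the markers of the line. VIM, CD44, AXL, MSN, SPARC and LGALS1 were between 72.35 and 3981.60 TPM in every library, PGR was listed at 0 and ESR1 and CDH1 were at most 0.17 TPM, while the luminal markers KRT8 and KRT18 were at 256.72 TPM or more and EPCAM, GATA3 and FOXA1 at 2.88 to 6.92 TPM. Of 7 fibroblast or muscle markers, COL1A1 and PDGFRB were at 3.50 to 6.76 TPM and the other 5 at most 1.42 TPM. Of 6 blood markers, 5 were at most 0.15 TPM and CD68, which the line itself expresses, was at 184.67 TPM or more. Read totals are not part of TPM, so the depth behind each value is unknown. Mitochondrially encoded genes held 32.135%, 27.987% and 26.928% of TPM in ArA replicates 1, 2 and 3. In control replicates 1, 2 and 3 they held 32.938%, 31.976% and 31.646%. TPM are shares, so a lower mitochondrial share leaves more for the other genes. Without mitochondrially encoded genes the median log2 fold change over all tested genes was -0.0031, against 0.0564 in the main analysis.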

How the data were processed

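Transcript levels of 6 RNA-seq libraries came from 1 table of genes by libraries. The authors deposited values in TPM. The submitters' processing notes name HISAT2, StringTie, RSEM and hg38. Versions, gene annotation and strand use in counting: not given in the sources used here. Libraries were made with an Illumina TruSeq RNA kit from 1 µg of total RNA, per the labels' protocols. Of 63291 lines, 50 name no gene and were left out.

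Sample titles gave the group and the replicate number. The 12999 genes whose mean reached 1 TPM were analysed as log2(TPM + 1) in limma 3.58.1 under R 4.3.3 (eBayes with a trend, group as the only term, 2-sided, Benjamini-Hochberg over all tested genes, threshold 0.05). This scale understates the change of low genes. The fit was tested on simulated data. No pairing by replicate number was seen, and no block was used in the main analysis. GC content is that of the longest GENCODE 29 transcript and had a value for 97.2% of tested genes. For the GC correction a natural spline (5 degrees of freedom) in GC content was fitted to each library's deviations and subtracted. Coordinates are GENCODE 29 on hg38. Upstream sequences are from RefSeq on GRCh38.p14, where 7 of the 10 genes matched. CCND1, CCNE2 and CDKN1C had no entry.

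The genes and lists were chosen with earlier results of these data known. The naming rule took all 10 genes and, from each pathway list, the 2 with the highest mean TPM, the smallest p in each direction and any gene past the threshold. The neighbours of CDKN2A and the other inhibitors were named in full. CCND2, CDK2, CDK6 and MYC were named after their values were seen. CDK1 and PLK1, of the proliferation markers, were also named outside this rule.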

Additional observations from a re-analysis of the deposited data

How the results depend on the processing

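Of 19 alternatives, 19 left 0 of the G1 control genes past the threshold. Over all tested genes the count was 3 in the main analysis, 5 with GC correction, 0 with the replicate block in limma (232 at an unadjusted p under 0.05, against 362 without it) and 12 without control replicate 2 and ArA replicate 1. Leaving out 1 library at a time gave 0 to 7. No pairing by replicate number was seen: deviations from group means, before GC correction, correlated at -0.16, -0.28 and 0.11 for the same numbers. The highest correlation, 0.285, was between ArA replicate 1 and control replicate 2. With the GC trend left in and 3 libraries in each group, this check cannot exclude pairing. The block changed no call of a G1 control gene. Groups of 0 G1 control genes were apart in the main analysis, beside 8.05% of all tested genes, of 0 to 3 with 1 library left out, beside 12.4% to 27.0%, and of 4 without both libraries named above, beside 44.4%.

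CCNE1, CCND3 and CDKN1A had positive log2 fold changes in all 19 alternatives, at 0.19 to 0.46, 0.05 to 0.23 and 0.05 to 0.19. The other filters, the replicate block alone and the eBayes options cannot change a log2 fold change, so they do not bear on its sign. Without ArA replicate 1 CCNE1 was at 0.41, CCND3 at 0.15 and CDKN1A at 0.06, beside a median of 0.12 over all tested genes. CCND1, CDKN1B and RB1 changed sign. Their log2 fold changes were -0.0306, -0.0418 and -0.0342 with median of ratios scaling, -0.0618, -0.0546 and -0.0514 with quantile normalization, and -0.0428, -0.0544 and -0.0467 for TPM without mitochondrially encoded genes. With GC correction, alone or with the replicate block, they were -0.0371, -0.0409 and -0.0008. With 1 library left out at a time CCND1 ranged from -0.0463 to 0.0993, CDKN1B from -0.18 to 0.14, RB1 from -0.25 to 0.16, CDKN1C from -0.12 to 0.10 and CCNE2 from -0.39 to 0.13. Without control replicate 2 and ArA replicate 1, CDKN1B was at -0.09 and RB1 at -0.12. The cause of these changes was not tested. With 3 libraries in each group and unknown depth, differences inside the intervals given could have been missed. The intervals are not adjusted for the number of genes tested, so they are not limits of detection. JUN had an interval of 0.22 to 0.62, which does not include 0, and still did not pass (limma adjusted p = 0.999). How large a difference would have passed was not tested.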
